A study of Mus musculus with 8 samples.

Results

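The genes described here are the 10 of a cavity macrophage signature, Prg4, Marco, Fcna, F5, Ednrb, Saa3, Cd5l, Gata6, Alox15 and Timd4, followed through single cells of KP lung tumors. They are 10 of the 27923 genes in the UMI tables, and each had a row in all 8 tables. They were chosen by their level in a macrophage cluster of these same cells, so their levels across cell classes are a description and carry no test. The mice were of the KP lung adenocarcinoma model, which carries floxed p53 (p53 fl/fl). The animals were chimeras made from KP embryonic stem cells, so cells of host origin are present beside cells that carry the KP alleles. Tumors were started at 12 weeks of age with an adenovirus in which the surfactant protein C (SPC) promoter drives Cre, which aims recombination at alveolar type II cells, and were removed 16 weeks later. Tumor 1 and Tumor 2 came from 2 mice. Each tumor gave 1 library of photoactivated cells sorted from its Healthy/Tumor Border and 3 Seq-Well arrays of the Whole Tumor, loaded with cells that had not been photoactivated. The arrays are technical replicates of 1 tumor, so any p-value below measures the spread between arrays and compares 2 tumors, and sex and tumor cannot be told apart because the mice were a male and a female.

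Resident macrophages of the pleural and peritoneal cavities are a self-maintaining population that depends on the transcription factor Gata6. They are large cells rich in coagulation factors, scavenger receptors and molecules that clear dying cells, and they can move onto the surface of an injured neighbouring organ. Prg4 encodes lubricin, a secreted lubricant of joints and serosal surfaces. Marco is a scavenger receptor for particles and bacteria, Fcna (ficolin A) a lectin that starts complement, F5 coagulation factor V, Ednrb the endothelin receptor type B, and Saa3 an acute-phase serum amyloid A made by macrophages. Cd5l is a secreted scavenger protein of tissue macrophages, Alox15 a lipoxygenase that makes lipid mediators, and Timd4 a receptor for phosphatidylserine on dying cells.

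The 10 genes lie apart in the mouse genome (GRCm38, GENCODE vM21). Prg4 (chr1:150449412-150466165, minus strand), Marco (chr1:120474538-120505024, minus) and F5 (chr1:164151838-164220277, plus) share a chromosome but are not neighbours. Fcna is at chr2:25624666-25628030 (minus), Cd5l at chr3:87357881-87371073 (plus), Saa3 at chr7:46711998-46715700 (minus) and Ednrb at chr14:103814625-103844402 (minus). Alox15 (chr11:70344152-70352031, minus) and Timd4 (chr11:46810800-46844332, plus) are both on chromosome 11, and Gata6 (plus strand) is on a chromosome of its own among the 10. Annotated genes overlap 4 of them on the opposite strand, Tpr at Prg4, Fcnaos at Fcna, Gm16548 at F5 and 1010001N08Rik at Gata6. The processed pseudogene Gm16588 overlaps F5 on the same strand. Whether the authors' counting used strand is not given in the sources used here, so reads of these pairs could not be assigned beyond the deposited symbols.

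Promoter windows of 300 bases, from 250 before to 50 after the start, were found for 7 of the 10 genes in the RefSeq table (GRCm38.p6). The GATA motif was searched because Gata6 is a member, as AGATAA or TGATAA on both strands. It was found in 2 of the 7 windows, those of Saa3 and Cd5l, and in 18.6% of 32851 mouse promoter windows of that length. The core of the C/EBP motif, TTGCNNAA on both strands, was found in 1 of the 7, again Saa3, against 10.8% of all windows. The AP-1 motif TGANTCA was found in none of the 7, against 7.81% of all. The windows of both genes are shown 5′ to 3′ on the gene's strand because they hold those matches, with GATA and C/EBP letters in capitals. The Saa3 window is chr7:46715627-46715926, minus strand, and the Cd5l window is chr3:87357631-87357930, plus strand. A match is a description of letters, not a bound site.
Saa3: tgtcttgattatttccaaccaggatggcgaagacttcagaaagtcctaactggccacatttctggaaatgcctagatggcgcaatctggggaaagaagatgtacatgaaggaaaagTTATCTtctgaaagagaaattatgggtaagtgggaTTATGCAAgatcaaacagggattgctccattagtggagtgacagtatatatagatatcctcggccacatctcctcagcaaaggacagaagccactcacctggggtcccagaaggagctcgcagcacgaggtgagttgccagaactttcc
Cd5l: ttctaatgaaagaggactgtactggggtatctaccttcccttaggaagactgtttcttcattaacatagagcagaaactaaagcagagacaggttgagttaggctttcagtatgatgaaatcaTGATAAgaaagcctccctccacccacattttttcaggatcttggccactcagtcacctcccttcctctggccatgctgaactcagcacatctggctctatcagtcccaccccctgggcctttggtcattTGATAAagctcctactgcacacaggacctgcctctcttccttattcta

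Of 4343 barcodes, 3894 with at least 200 genes were kept, and the libraries held between 405627 and 2029200 UMIs. Cells were assigned to classes by lists of markers that held none of the 10 genes, and 645 fell in the monocyte and macrophage gate. These numbered 55, 84 and 54 in the Tumor 1 Whole arrays, 58, 88 and 127 in the Tumor 2 Whole arrays, 170 at the Tumor 2 Border and 9 at the Tumor 1 Border. Monocytes, alveolar macrophages and other macrophages were taken as 1 class, called macrophages below. The names of the cells inside the tables carry the other tumor's number in all 8 libraries, and the sample labels were used. The number of barcodes in each tumor and region matched the cell number that the study states under the same label, and an exchange of the labels would turn the direction of every comparison between tumors. Xist was at 399 to 609 CPM (UMIs scaled to 1000000 per library or class) in the libraries labelled Tumor 1 and at 2.04 to 2.67 CPM in those labelled Tumor 2, so the libraries of each label belong together. Kept cells with a barcode found in several libraries numbered 56, from 10 barcodes.

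Across whole libraries, 8 of the 10 genes were higher in each of the 3 Whole arrays of Tumor 1 than in any other library, the exceptions being Gata6 and Timd4, and 19.7% of the 10400 genes with at least 50 UMIs were. The 10 were chosen on these cells, so nothing is read from the count. Prg4 was at 328, 274 and 390 CPM in those arrays. It was at 10.9, 10.7 and 2.79 CPM in the Tumor 2 Whole arrays, and at 1.63 and 1.37 CPM in the Border libraries of Tumor 1 and Tumor 2. All 3 Tumor 1 Whole arrays were far above the other 5 libraries. Marco, read in the same order, was at 239, 162 and 257 CPM, then at 1.36, 26.7 and 8.92 CPM, and in the Border libraries at 1.63 and 4.10 CPM. Of all Prg4 UMIs 98.4% came from Tumor 1 Whole, as did 96.0% of Marco and 93.7% of Cd5l UMIs, and between 75.0% and 87.4% of those of Ednrb, Saa3, Alox15, Fcna, F5 and Gata6. Gata6 was at 23.9, 11.4 and 41.1 CPM in Tumor 1 Whole and at up to 16.03 CPM in Tumor 2 Whole, so the arrays overlapped. Timd4 had 5% in Tumor 1 Whole and 77.5% in Tumor 2 Whole. In these bulk sums, more cells of a type and more RNA per cell cannot be told apart.

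**Figure D1:**
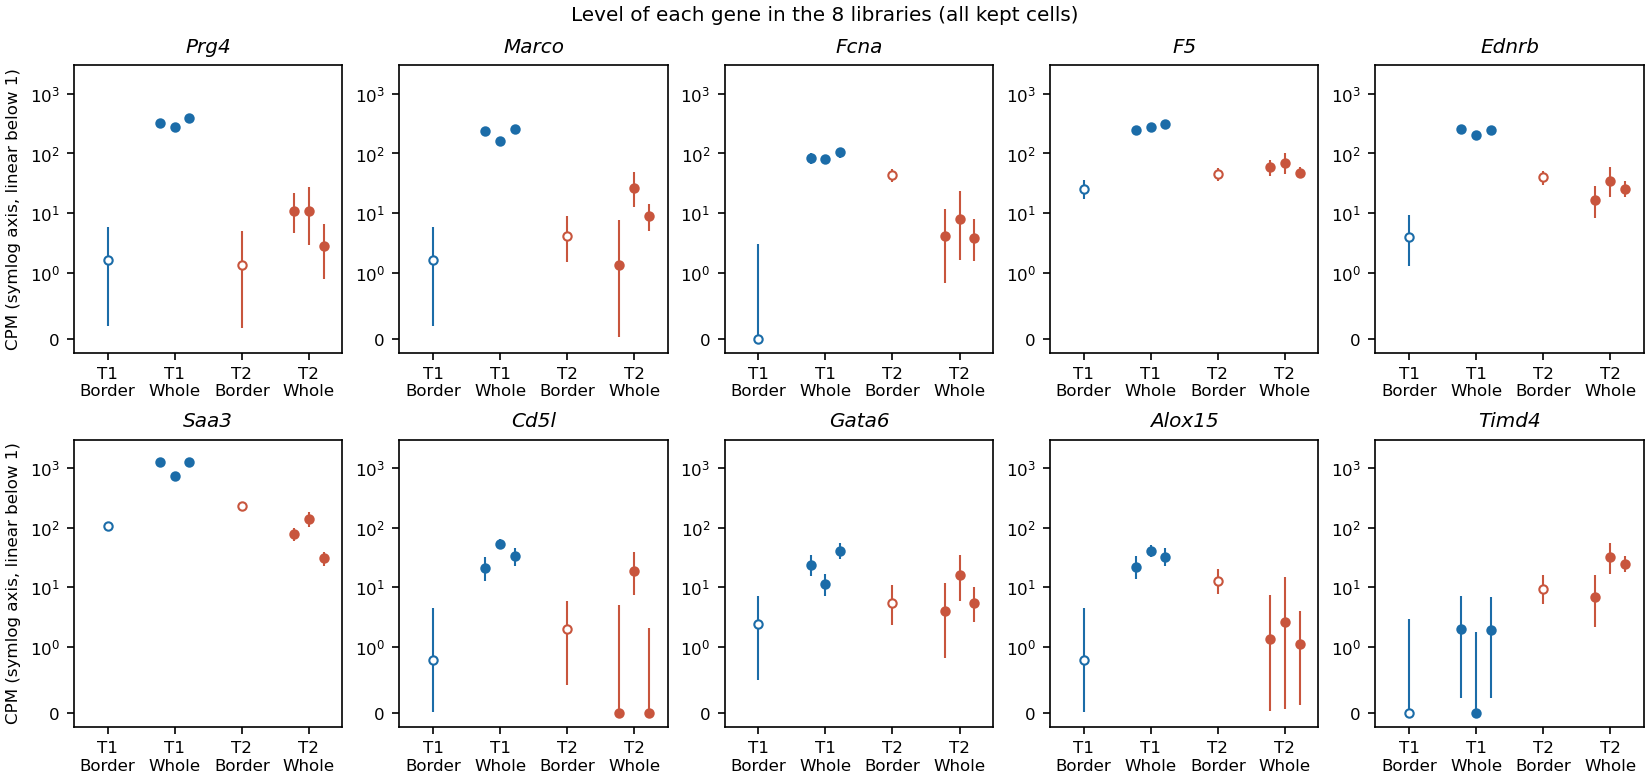
CPM of each signature gene over all kept cells of a library (vertical symmetric log axis, linear below 1), by tumor (T1, T2) and region. Points are libraries, with open points for Border, and bars are 95% exact Poisson intervals that cover counting error only. Prg4 lies between 274 and 390 CPM in Tumor 1 Whole and at most at 10.9 CPM elsewhere, whereas Timd4 is highest in arrays 2 and 3 of Tumor 2 Whole.

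In Tumor 2 the Border library stood above the Whole arrays for some of the genes and not for others. Fcna was at 43.1 CPM at the Tumor 2 Border, against 3.90 to 8.01 CPM in the 3 Whole arrays. Saa3 was at 235 CPM against 30.6 to 139 CPM, Alox15 at 13.0 against 1.11 to 2.67 CPM, and Ednrb at 39.7 against 16.4 to 34.7 CPM. For Alox15 and Ednrb the Poisson intervals of the Border library and the highest array overlap. A single macrophage gave 12 of the 19 Alox15 UMIs at that Border. Prg4 and F5 were below all 3 Whole arrays at that Border, with intervals that overlap those of the lowest array, and Marco, Cd5l, Gata6 and Timd4 were within the range of the arrays. In Tumor 1 the Border library was below all 3 Whole arrays for 9 genes, as it was for 62.0% of the 10400 genes, and Timd4 had no UMI there. No share over all genes was counted for the Tumor 2 Border, so nothing is read from the number of genes above or below there. With 1 Border library per tumor there is no test of these differences, and the Tumor 1 Border library held only 9 gated macrophages.

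With all 8 libraries pooled, most UMIs of the genes other than Gata6 and Timd4 lay in the macrophages. These held 94.5% of the 1312 Prg4 UMIs, 97.1% of the 175 of Cd5l, 96.5% of the 431 of Fcna, 96.1% of the 872 of Marco and 93.2% of the 162 of Alox15. The share was 90.0% for Saa3, 89.9% for Ednrb and 74.1% for F5, and it was only 40% for Gata6 and 23.75% for Timd4. These shares rest mostly on Tumor 1 Whole. A class of 801 shallow barcodes rich in satellite transcripts (median 377 UMIs) held 2.29% of the Prg4 UMIs, at 66.9 CPM. In Tumor 2 Whole that class had 10 Prg4 UMIs (86.3 CPM) and the macrophages had 5 (4.5 CPM). In the macrophages of the 3 Tumor 1 Whole arrays, Saa3 was at 4688, 3095 and 4875 CPM (mean 4219 ± 979, SD, n = 3 arrays). Prg4 was at 1189, 1161 and 1551 CPM (1300 ± 217). Saa3 stood above the other 9 genes in each array, and Prg4 was next in each. F5 was at 869, 1046 and 1054 CPM (990 ± 105), Ednrb at 935, 858 and 916 CPM (903 ± 40.0) and Marco at 889, 696 and 1020 CPM (868 ± 163), and these 3 did not differ beyond the spread of the arrays. Fcna was lower, at 308, 341 and 419 CPM (356 ± 57.5). Cd5l, Alox15 and Gata6 were lower still and more uneven, at 147 ± 72.6, 122 ± 55.6 and 58.0 ± 52.4 CPM, with Gata6 between 12.8 CPM in array 2 and 115 CPM in array 3. Timd4 had a single UMI there. UMI counts were not scaled by transcript length, because this assay reads transcript ends.

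**Figure D2:**
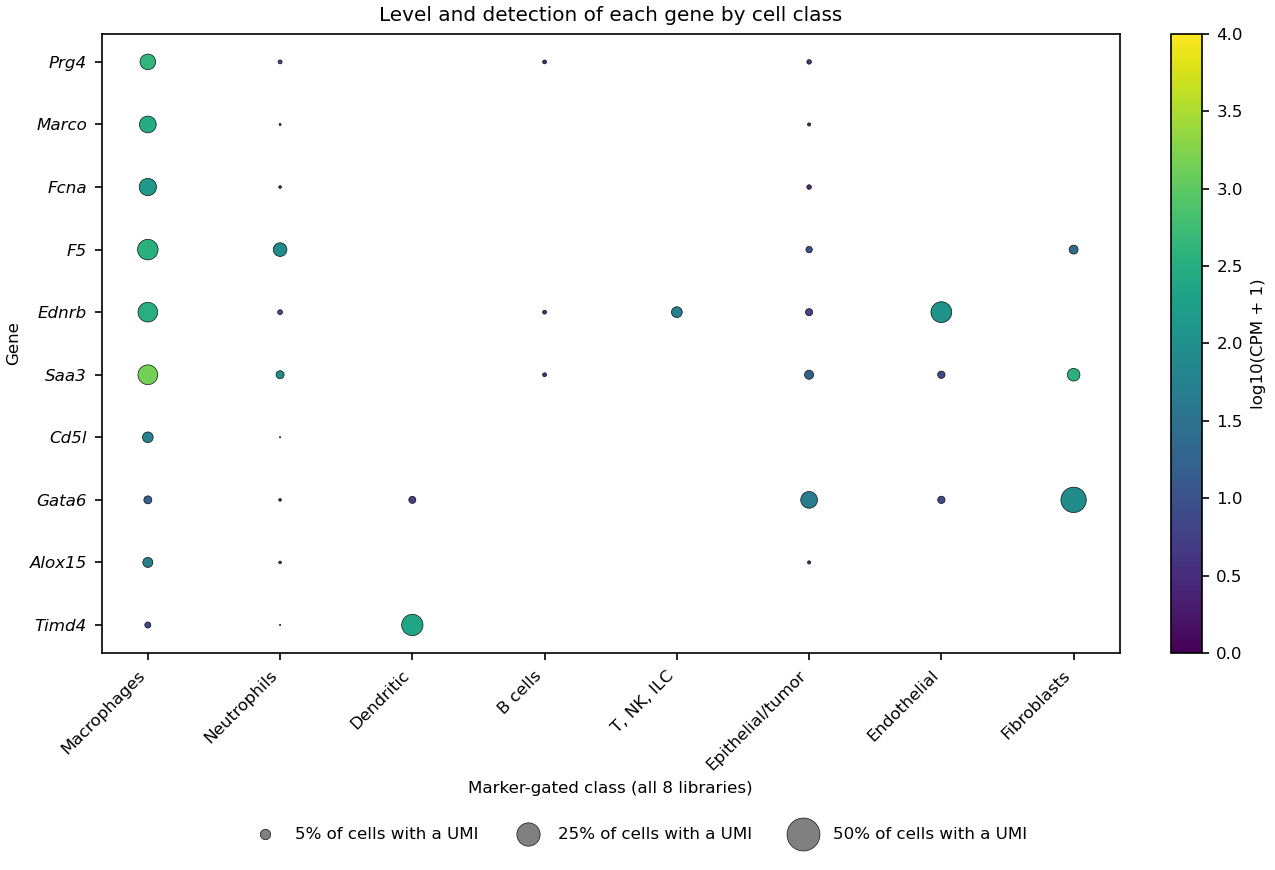
Level and detection of the signature genes (rows) by marker-gated class (columns) over all 8 libraries. Colour is log10(CPM + 1) and area the share of cells with a UMI, with no dot where no UMI was seen. Barcodes rich in satellite transcripts, ungated cells and the class of mast cells, basophils and eosinophils are not drawn. Of the 645 macrophages 19.4% had an F5 UMI and 11.3% a Prg4 UMI, while Timd4 has its largest dot in dendritic cells and Gata6 in fibroblasts.

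Seen as a share of cells, Prg4 had a UMI in 73 of 645 macrophages (11.3%, 95% Clopper-Pearson interval 8.98 to 14.0%, median depth 3462 UMIs). B cells, which should lack it, had it in 1 of 142 (0.704%, median depth 2048 UMIs), and T, NK and innate lymphoid cells in 0 of 111. Thinning each cell to 1000 UMIs left Prg4 in 9.26% of macrophages and in 0.482% of neutrophils. By array, Prg4 was seen in 36.4% ± 0.661 of macrophages in Tumor 1 Whole and in 0.953% ± 0.876 in Tumor 2 Whole (SD, n = 3 arrays each). The share with Saa3 was 48.9% ± 2.55 against 1.48% ± 0.305, and that with F5 54.2% ± 2.81 against 4.50% ± 1.03. In each case all 3 arrays of Tumor 1 were above all 3 of Tumor 2. Array 2 of Tumor 2 Whole was shallow, with a median of 675.5 UMIs in its kept cells against 1654 to 2526 in the other Whole arrays. In macrophages thinned to 1000 UMIs, Prg4 was seen in 27.8%, 27.2% and 32% in the Tumor 1 Whole arrays. In those of Tumor 2 Whole it was seen in 1.79%, 1.79% and 0%, with 56 of the 88 macrophages of array 2 deep enough to be thinned.

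Neutrophils, the largest class with 1472 cells, were low for 8 of the genes and carried F5 and Saa3. F5 had UMIs in 127 neutrophils (8.63%), 21.3% of all its UMIs. The level of F5 in neutrophils was 68.5, 72.1 and 100 CPM in the Tumor 1 Whole arrays and 24.3 CPM at the Tumor 1 Border. It was 141, 195 and 111 CPM in the Tumor 2 Whole arrays and 192 CPM at the Tumor 2 Border. By CPM all 4 Tumor 2 libraries were above all 4 of Tumor 1, an order opposite to that of F5 in the macrophages of the Whole arrays, and it was not tested. The Poisson intervals of array 3 of Tumor 1 Whole (71.2 to 137 CPM) and array 3 of Tumor 2 Whole (84.9 to 143 CPM) overlapped. By share of neutrophils with a UMI the order did not hold, with 13.8% in array 3 of Tumor 1 Whole and 9.27% in array 2 of Tumor 2 Whole. No share over all genes was counted for this order, so nothing is read from it. Saa3 was uneven in neutrophils, with 30.0 to 265 CPM in the Tumor 1 libraries, 0 to 66.0 CPM in the Tumor 2 Whole arrays and 0 at the Tumor 2 Border. Array 1 of Tumor 1 Whole stood apart, since 5 of its 130 neutrophils had at least 3 of the 10 genes, against none of the other neutrophils. Prg4 in neutrophils was at 74.4 CPM in that array, against 7.21 and 2.57 CPM in the other two arrays of Tumor 1 Whole.

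Some genes had a second class in which they were seen. Gata6 had 30.8% of its 120 UMIs in epithelial or tumor cells, where 27 of 210 cells had a UMI (43.8 CPM), and 9.17% in 8 of 27 fibroblasts (84.7 CPM). Of the 19 macrophages with Gata6, 18 came from Tumor 1 Whole. Within Tumor 1 Whole Gata6 was at 48.5 CPM in macrophages (95% exact Poisson interval 35.6 to 64.4), 37.3 CPM in epithelial or tumor cells (24.4 to 54.6) and 53.9 CPM in fibroblasts (11.1 to 157), and the 3 intervals overlapped. Ednrb, which endothelial cells are known to carry, was at 110 CPM in them (8 of 40 cells). Saa3 was at 362 CPM in fibroblasts, where 46 of the 47 UMIs came from 1 cell of Tumor 2 Whole. Marco, Fcna, Cd5l and Alox15 had no UMI in endothelial cells or fibroblasts.

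Timd4 was at its highest level in dendritic cells, and it was also seen in macrophages. The dendritic gate held 57.5% of its 80 UMIs in 9 of 43 cells, at 231 CPM against 6.41 CPM in macrophages, where 11 of 645 cells had it. Of these 9 cells 8 came from the Tumor 2 Whole arrays, 6 of them from array 3, and 1 from the Tumor 2 Border. Array 3 gave 40 of the 46 Timd4 UMIs in dendritic cells, so the share and the level rest mostly on 1 array. None of the 12 dendritic cells of Tumor 1 had a Timd4 UMI, which with a floor of 3 cells allows a share with a UMI of up to 25% and sets no limit on cells that express it. All 9 had UMIs of Ccr7 and Ccl22, markers of migratory dendritic cells that are also in the gate's list, and the MHC II chaperone Cd74 was at 10473 CPM against 4238 CPM in the other dendritic cells. Among the 34 dendritic cells without a Timd4 UMI, 28 had Ccr7 and 24 had Ccl22. Fscn1, another gene of mature dendritic cells in that list, went the other way, with a UMI in 2 of the 9 cells (128 CPM) against 17 of the 34 (2147 CPM). So did Flt3, in 4 of the 9 (202 CPM) against 26 of the 34 (621 CPM), and Cd209a, in 0 of the 9 against 6 of the 34. Xcr1 was seen in 3 of the 9 (73.4 CPM) against 3 of the 34 (20.7 CPM) and Clec9a in 2 of the 9 (55.0 CPM) against 3 of the 34 (27.6 CPM). Cd5l and Prg4 had no UMI in any of the 43. The cells with Timd4 were deeper, with a median of 6500 UMIs against 3386.

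The genes also went together within single cells. Of the 193 macrophages of Tumor 1 Whole, 66 had none of the 10 genes, 35 had 1 or 2 and 92 had 3 or more, with a maximum of 9. Cells with 3 or more were 47.3%, 47.6% and 48.1% of the macrophages in its 3 arrays. The count was spread widely among them, with 20 cells at 6 genes, 17 at 7, 10 at 8 and 3 at 9. Of the 70 cells with Prg4, 55 had Marco (78.6%), 50 had Fcna (71.4%) and 62 had Saa3 (88.6%), against 14.6%, 9.76% and 26.0% of the 123 cells without it. All 18 cells with Gata6, on which resident cavity macrophages depend, had F5 and Saa3, and 15 of them had Prg4. Alox15 was seen in 23 of the 70 Prg4-positive cells and in 1 of the other 123. Of the 31 cells with Cd5l, 27 had Prg4 and 26 had Marco. Depth moved with these counts, as the cells with Prg4 had a median of 5534 UMIs and those without it 3118, and its part was not tested.

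**Figure D3:**
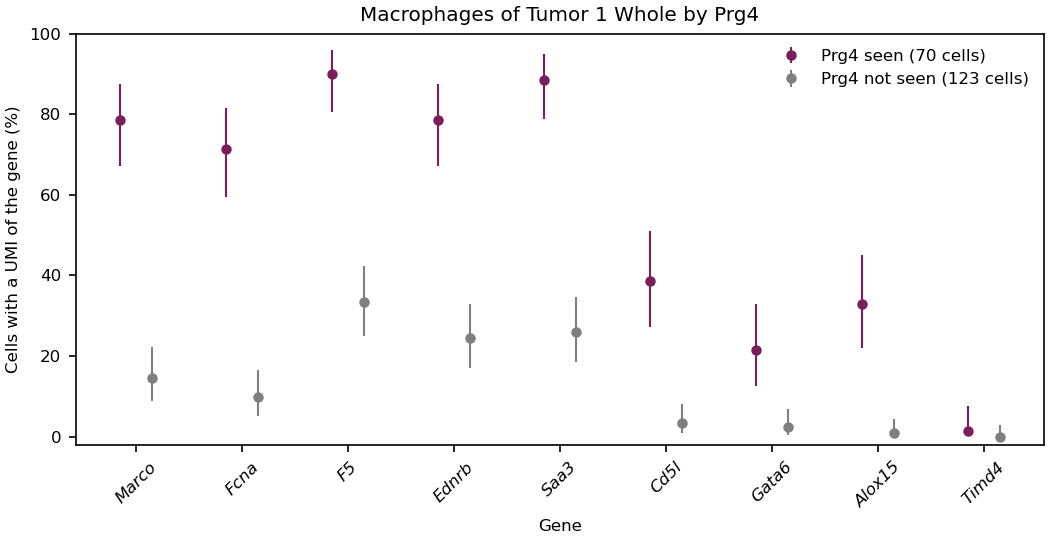
Share of the 193 macrophages of Tumor 1 Whole with a UMI of each of the other 9 genes (vertical axis, percent), for 70 cells with and 123 cells without a Prg4 UMI, with the 3 arrays pooled. Bars are 95% Clopper-Pearson intervals that cover counting error only. F5 was seen in 90% of cells with Prg4 and 33.3% of cells without it, and Timd4 in at most 1 cell of each.

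Other genes differed between macrophages of Tumor 1 Whole with many and with none of the signature genes. Fn1 (fibronectin) was at 12307, 13069 and 16780 CPM in the cells with 3 or more of the genes, by array, and at 1246, 1997 and 395 CPM in the cells with none. Slpi (a protease inhibitor of secretions) was at 1378, 3802 and 2875 CPM against 87.4, 43.6 and 69.8 CPM. Thbs1 (thrombospondin 1) was at 34058, 29462 and 30517 CPM against 4153, 7242 and 5536 CPM. For all 3 genes the arrays of the 2 sets of cells did not overlap. The elastase Mmp12 was lower with 3 or more of the genes, at 78.5, 22.8 and 107 CPM against 3038, 2383 and 4652 CPM. Il1b, an inflammatory cytokine, was at 236, 1048 and 1855 CPM against 2514, 4959 and 6467 CPM, and the MHC II chaperone Cd74 at 814, 422 and 227 CPM against 2842, 4791 and 2908 CPM. The macrophage receptor gene Csf1r was at 1121, 946 and 1515 CPM against 393, 1425 and 1024 CPM, so that the arrays overlapped and did not share a direction. The median depth was 5300 UMIs in the cells with 3 or more genes and 2936 in those with none. The split was chosen after the values were seen and uses the same cells, so no test was made.

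**Figure D4:**
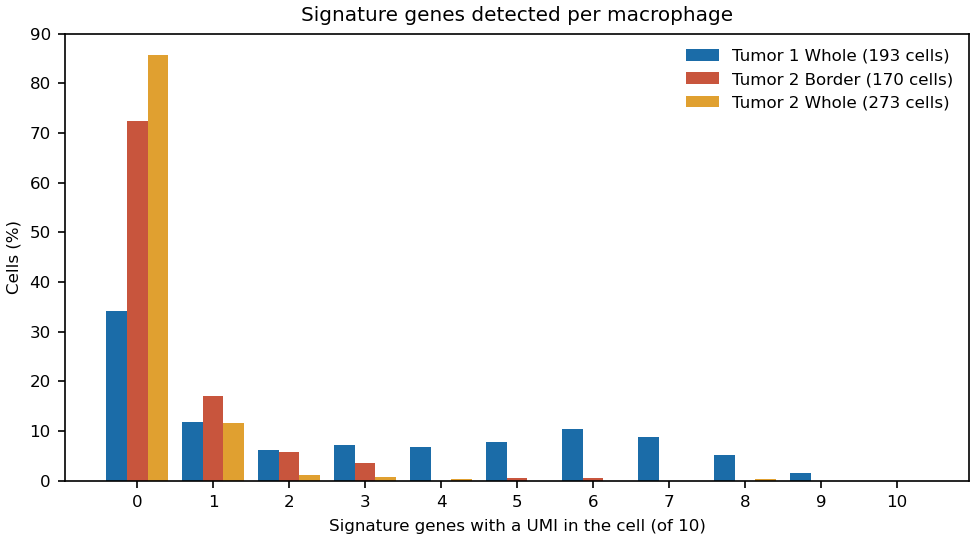
Number of the 10 signature genes with a UMI in a macrophage (horizontal axis) and share of macrophages (vertical axis, percent) in Tumor 1 Whole, at the Tumor 2 Border and in Tumor 2 Whole. Of the 193 cells of Tumor 1 Whole 47.7% had 3 or more of the genes, against 4.71% at the Tumor 2 Border and 1.47% in Tumor 2 Whole.

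In the gated monocytes and macrophages of the Whole arrays, 8 of the 10 genes had enough counts for edgeR's quasi-likelihood test, and all 8 were called lower in Tumor 2. Of all 4059 genes tested 11.8% were called lower and 15.8% higher in Tumor 2. The genes had been selected on cells of these libraries and passed the low-count filter through Tumor 1, where they were high, so nothing is read from this count. The fold changes of these 8 genes are a description printed with no p. Prg4 was at 1300 ± 217 CPM in Tumor 1 and 9.48 ± 13.2 CPM in Tumor 2 (SD, n = 3 arrays each), a log2 fold change of -7.89 ± 0.46 (SE, edgeR). Saa3 was at 4219 ± 979 against 36.6 ± 6.14 CPM, a log2 fold change of -6.70 ± 0.28. Both were far lower in each Tumor 2 array than in any Tumor 1 array. F5 was at 31.1 ± 6.93 CPM in Tumor 2 (log2 fold change -4.85 ± 0.25), Ednrb at 38.3 ± 26.5 CPM (-4.34 ± 0.31) and Marco at 29.0 ± 29.4 CPM (-5.03 ± 0.37). Fcna was at 12.1 ± 5.58 CPM (-4.87 ± 0.32). The remaining ones were Alox15 at -5.27 ± 0.60 and Cd5l at -4.32 ± 0.72 on the log2 scale, with 3 and 7 UMIs in the Tumor 2 macrophages. The values of Prg4 and Cd5l moved with single arrays of Tumor 2, to -9.76 and -8.83 without array 2, which held the cell with 8 of the genes described below, and to -6.54 and -2.97 without array 3. Without array 2 Cd5l had no UMI in Tumor 2, so -8.83 is a fitted value and no bound. Under DESeq2 Prg4 was at -7.21, and Cd5l, at -3.26, was not called. Gata6 and Timd4 did not pass the filter on low counts, with 47 and 1 UMIs in the gated cells of Tumor 1 Whole and 1 and 11 UMIs in those of Tumor 2 Whole. Under the settings in which Gata6 was tested it was lower in Tumor 2, at -5.47 with DESeq2, -5.24 with no filter, -5.78 with the array number as a replicate block and -5.85 to -4.09 with 1 of 3 other arrays left out. Without array 2 of Tumor 2, which held its only UMI there, its -7.30 is a fitted value and no bound. Timd4 was higher in Tumor 2 where it was fitted, at 3.61 with DESeq2, which gave no adjusted p, and at 3.14 with no filter, where edgeR did not call it (adjusted p = 0.0954).

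The macrophages of Tumor 2 Whole were uneven. Of its 273 macrophages, 234 had none of the 10 genes and 4 had 3 or more. A single cell of array 2, with 1687 UMIs, had 8 of the genes, with 4 UMIs of Prg4, 7 of Cd5l, 4 of Timd4, 3 each of Fcna and F5 and 1 each of Ednrb, Gata6 and Alox15. It gave all 7 Cd5l UMIs, the 1 Gata6 UMI and 4 of the 5 Prg4 UMIs of the macrophages of Tumor 2 Whole, and it had 22 UMIs of the macrophage lysozyme gene Lyz2 and none of Csf3r or S100a8. The other three cells had F5, Ednrb and Saa3, with 7 to 18 Saa3 UMIs each, and no UMI of Prg4 or Marco. Cells with at least 3 of the genes numbered 116 over all classes and libraries, of which 35, 42 and 27 were in the Tumor 1 Whole arrays, 8 at the Tumor 2 Border, 4 in Tumor 2 Whole and 0 at the Tumor 1 Border, and 104 of the 116 were macrophages.

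At the Tumor 2 Border, part of the signature was seen in macrophages and part was not. Among its 170 macrophages Fcna was seen in 20, Saa3 in 18, Ednrb in 16, F5 in 8, Timd4 in 5, and Marco and Alox15 in 4 each. Prg4 was seen in 1 cell and Gata6 in none, which with a floor of 3 counts allows a level of up to 3.49 CPM. The level of Saa3 was 397 CPM (95% exact Poisson interval 356 to 442) and that of Fcna 71.1 CPM (54.4 to 91.3), against 36.9 CPM (26.4 to 50.01) and 10.8 CPM (5.57 to 18.9) in the macrophages of Tumor 2 Whole. Alox15 was at 21.0 CPM (12.4 to 33.1) against 2.70 CPM (0.556 to 7.88), while the intervals of Ednrb, at 47.8 and 42.3 CPM, overlapped. All 5 cells with Timd4 had Saa3. At the Tumor 2 Border and, with the arrays pooled, in Tumor 2 Whole, macrophages held Fcna, Saa3 and Ednrb at a higher level than Prg4. Tumor 1 Whole had that order only for Saa3. In Tumor 2 Whole the interval of Fcna overlapped that of Prg4, at 4.5 CPM (1.46 to 10.5). Its array 2 had the reverse order for this pair, with Prg4 at 24.5 and Fcna at 18.4 CPM.

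Within that library, the 20 macrophages with a Fcna UMI differed from the 150 without. Saa3 was at 1435 CPM (95% exact Poisson interval 1248 to 1642) against 183 CPM (153 to 217), and a single cell gave 77 of the 211 UMIs of the first set and another 86 of the 130 of the second. Ednrb was at 150 CPM (93.7 to 226) against 26.7 CPM (16.1 to 41.7), and Alox15 at 109 against 2.81 CPM, where 12 of the 16 UMIs came from 1 cell. Prg4 and Gata6 had no UMI in the cells with Fcna, where a count of 3 would be 20.4 CPM. Lyve1 and Folr2, which mark another type of tissue and serosal macrophage, were at 592 against 57.6 CPM and at 258 against 22.5 CPM. Ccr2, in the same list, went the other way, at 68.0 against 246 CPM. Lyve1 was seen in 8 of the 20 cells and Folr2 in 12. Vsig4, a complement receptor of resident macrophages, was at 122 CPM against no UMI, and Mmp12 had no UMI against 1657 CPM. Fn1 was at 11757 against 2581 CPM, and the mannose receptor Mrc1 at 1918 against 1253 CPM. In the macrophages of Tumor 1 Whole, Lyve1 was at 2.06 CPM and Folr2 at 14.4 CPM. The cells with Fcna were deeper, with a median of 6374 against 3855 UMIs, and thinning to 1000 UMIs left Saa3 in 6 of 20 against 8 of 146 cells. The split was chosen after the values were seen, and these are cells of 1 library, so no test was made.

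**Figure D5:**
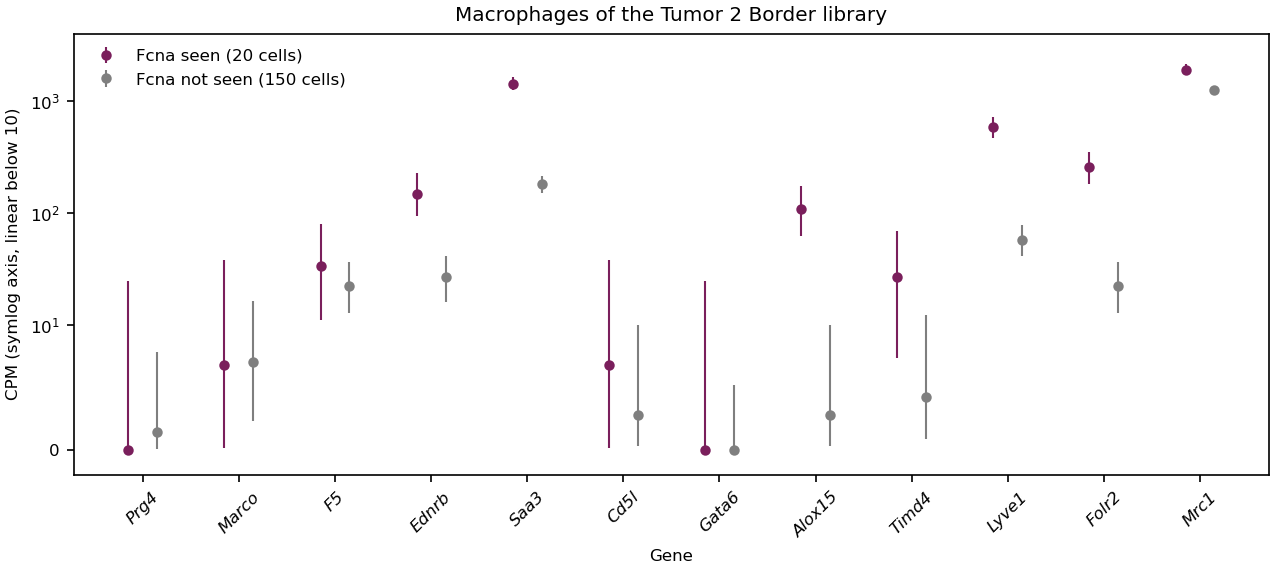
CPM of the other 9 genes and of Lyve1, Folr2 and Mrc1 in macrophages of the Tumor 2 Border library (vertical symmetric log axis, linear below 10), for 20 cells with and 150 cells without a Fcna UMI. Bars are 95% exact Poisson intervals. Saa3, Ednrb, Alox15, Lyve1 and Folr2 are higher with Fcna, whereas Prg4, Marco and Gata6 are at or near 0 in both.

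Other genes of cavity macrophages were given from a list that did not include the 10. Of 23 in the tables, 15 had enough counts for edgeR in the macrophages of the Whole arrays, and 10 were lower and 3 higher in Tumor 2, with a median log2 fold change of -2.63, against 11.8% lower and 15.8% higher among all genes tested. The list was chosen with earlier results of these data known, and 3 of the 10 (Serpinb2, Ltbp1 and Ptgis) had no UMI in Tumor 2 and passed the low-count filter through Tumor 1, so nothing is read from the count and no p is printed. Among those lower, the adhesion receptor Selp was at -6.65 ± 0.40 on the log2 scale (SE, edgeR), the complement gene C4b at -5.06 ± 0.32, Slpi at -3.17 ± 0.31 and Fn1 at -2.64 ± 0.24. Bhlhe40, F7 and Emr1, the F4/80 gene, were higher in Tumor 2, at 1.30, 1.34 and 0.67. Serpinb2 and Ltbp1 were at 186 and 78.4 CPM in the macrophages of Tumor 1 Whole and had no UMI in those of Tumor 2 Whole. Vsig4 was low in both, at 2.06 and 0.899 CPM. Of 8 genes of the other type of serosal macrophage, 2 were tested, and both were higher in Tumor 2, Mrc1 at 2.91 ± 0.24 and the chemokine receptor gene Ccr2 at 3.15 ± 0.37. Of 8 scavenger receptors 5 were tested, and Msr1 (-2.30) and Colec12 (-3.11) were lower and Stab1 (0.96) higher in Tumor 2. Alveolar macrophage markers, 10 in all, summed to 1513 CPM in the macrophages of Tumor 1 Whole and 5135 CPM in those of Tumor 2 Whole, and all 6 tested were higher in Tumor 2 (15.8% of all genes were). Chi3l3 alone gave 1457 and 3640 CPM of these sums. Within Tumor 1 Whole, Chi3l3 was at 1909 CPM in the macrophages with 3 or more of the 10 genes and 645 CPM in those with none. In these 3 lists too, a gene could pass the low-count filter through the tumor in which it was high, so nothing is read from the counts. The part of the alveolar markers in the differences between tumors was not tested. Mesothelial markers, 6 in all, summed to 5.16 CPM in the macrophages of Tumor 1 Whole and to 0 in those of Tumor 2 Whole.

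The genes whose profile was most like that of Prg4 were named by Pearson's r of log2(CPM + 10) over 9 class-by-tumor profiles of at least 50 cells, among 10390 genes. They were Car6 (r = 0.991), Ptgis (0.972), Colec12 (0.930), Ccl24 (0.930), Fgfr1 (0.927), Ackr3 (0.922), Akap7 (0.913), Selp (0.912), Naip1 (0.904) and Kctd9 (0.897). Car6 is a secreted carbonic anhydrase, Ptgis makes prostacyclin and Ccl24 is an eosinophil chemokine. Selp was at 669 CPM, Ccl24 at 269 CPM and Car6 at 134 CPM in the macrophages of Tumor 1. Among the 10 genes, r with Prg4 was 0.929 for Marco, 0.905 for Cd5l and 0.890 for Ednrb, and it was 0.163 for Timd4. The profiles share libraries and depth and rest on 1 high profile, so r is a description.

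Markers of neutrophils moved with some of the genes in macrophages and not with others. Of the 193 macrophages of Tumor 1 Whole, 137 had a UMI of at least 1 of the 11 neutrophil markers, and these cells were deeper (median 4568 against 2548 UMIs). Summed over the list, the level was 774 CPM in them all against 11675 CPM in the neutrophils of Tumor 1 Whole. Trem1, which macrophages also make, gave 417 CPM of it and was seen in 110 cells. Il1r2 was at 168 CPM and Csf3r at 62.9 CPM, each in 32 cells, S100a9 at 45.4 and Mmp9 at 40.2 CPM, while Retnlg was at 0, Cxcr2 at 2.06 and S100a8 at 16.5 CPM. In the 56 cells without any of the markers, Prg4 was at 81.6, 570 and 819 CPM in the 3 arrays, against 1472, 1290 and 1710 CPM in the cells with one. Fcna was at 0, 83.1 and 409 CPM against 386, 397 and 422 CPM. All 3 arrays were lower for both genes in the cells without neutrophil markers. Marco was lower without the markers in array 1 and higher in arrays 2 and 3, at 347, 760 and 1336 CPM against 1028, 682 and 951 CPM. Saa3 was lower in arrays 1 and 2 and higher in array 3, at 428, 1841 and 6979 CPM against 5778, 3369 and 4418 CPM. Ednrb and Alox15 were likewise lower without the markers in arrays 1 and 2 and higher in array 3. In array 3 Ednrb was at 1012 against 895 CPM and Alox15 at 258.5 against 103 CPM. Leaving out every macrophage with such a UMI lowered the mean Prg4 level from 1300 to 490 CPM. Between tumors, 4 of the genes then had enough counts for edgeR, Saa3, F5, Marco and Ednrb, and all 4 were lower in Tumor 2, where 4.12% of the 1385 genes tested were. They passed that filter through Tumor 1, so nothing is read from the count. F5 was then at -5.94 on the log2 scale, and Saa3 had no UMI in Tumor 2. The part of such markers in the result was not tested.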

How the data were processed

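Seq-Well libraries of 2 KP tumors were profiled. The authors demultiplexed reads with bcl2fastq 2.17.1.14, aligned them to mm10 with STAR 2.5.2b under the Drop-seq protocol, collapsed UMIs and deposited raw counts per gene and barcode for each of the 8 libraries. Barcodes with at least 200 genes were kept (449 left out). Doublets called by Scrublet in scanpy 1.11.5 (57 cells, 1.46%) were kept. A cell took the class with the most distinct markers seen, at least 2 and more than in any other class. This gate was written after the data were seen, and the members and lists were chosen with earlier results of these data known. Levels are CPM over the summed UMIs of a class, with exact Poisson or Clopper-Pearson intervals (95%), which cover counting error only. Thinned cells were drawn to 1000 UMIs. Counts summed per array were tested with edgeR 4.0.16 in R 4.3.3 (TMM, quasi-likelihood, filterByExpr, Benjamini-Hochberg adjusted p under 0.05), and DESeq2 1.42.0 was an alternative. SEs were taken from the F statistic. The test was tried on simulated data. The named genes were the 10 members, the 10 genes nearest to Prg4 and 3 lists (other cavity genes, other serosal genes, scavenger receptors). Marker lists of mesothelial cells, neutrophils and alveolar macrophages were summed beside them. Genes given for cells split by the members seen in them were chosen after their values were seen. 1 planned item is not reported here. All 10 members were accounted for, and 8 passed the low-count filter. The alternatives were other cell filters, gates, depths, tools and left-out arrays.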

Additional observations from a re-analysis of the deposited data

Results flagged for a closer look

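For 4 of the genes, the Border library lay on opposite sides of the Whole arrays in the 2 tumors. It was higher than each array in Tumor 2 and lower than each array in Tumor 1. In Tumor 2 the Poisson intervals of Alox15 and Ednrb overlapped those of the highest array. Of the 10400 genes with at least 50 UMIs, 62.0% were below each array at the Tumor 1 Border. The share above each array in Tumor 2, or on opposite sides, was not counted, so nothing is read from the number of genes. At the Tumor 2 Border Fcna was at 43.1 CPM, Ednrb at 39.7 CPM, Saa3 at 235 CPM and Alox15 at 13.0 CPM. At the Tumor 1 Border Fcna had no UMI, Ednrb was at 4.07 CPM, Saa3 at 106 CPM and Alox15 at 0.813 CPM. With 1 Border library per tumor the difference between the tumors was not tested. Gated macrophages were 33.6% of kept cells at the Tumor 2 Border and 1.45% at the Tumor 1 Border.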

How the results depend on the processing

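In the macrophages, edgeR called 1119 genes of 4059 between the tumors. DESeq2 called 700, and 148 were called when macrophages with a UMI of any neutrophil marker were left out, with 1385 genes tested. Leaving out 1 array gave 842 to 1065. Of the values of single members in that comparison under the alternatives, 107 kept their direction and call, and 1 lost its call, Cd5l under DESeq2 (log2 fold change -3.26). Prg4, Fcna, Cd5l and Alox15 could not be tested without the neutrophil-marker cells and are missing from these numbers for that setting. The members were selected on these cells and passed the filter through Tumor 1, so nothing is read from the numbers. The sizes moved more, Prg4 between -9.76 and -6.54 and Cd5l between -8.83 and -2.97 with 1 array left out. Saa3, with no UMI left in Tumor 2, had a fitted value of -11.1 without neutrophil-marker cells, which is no bound. With the array number as a replicate block, 1111 genes were called. Same-numbered arrays did not deviate together (r of 0.0138, 0.014 and -0.000256), so they share only a number.

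The share of Prg4 UMIs in macrophages (94.5%) was 96.5% in cells with at least 500 genes and 55.8% without the macrophages that had a neutrophil-marker UMI, a setting that removes 137 of the 193 macrophages of Tumor 1 Whole. Of the shares of the other 9 genes under the alternatives, 84 moved by less than their interval and 33 by more, most often without the neutrophil-marker cells, and of the mean levels in the macrophages of Tumor 1 Whole 120 stayed within 1 SD and 10 did not. The Prg4 share was 93.5% in thinned cells and ranged from 91.6% to 97.1% with 1 array left out. Leaving out barcodes found in several libraries, chosen after seeing the data, gave 1119 genes and 94.9%. Ednrb in the macrophages of the Tumor 2 Border, at 47.8 CPM, lay within the 7.80 to 55.2 CPM of the Tumor 2 Whole arrays.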
